A study of Mus musculus with 8 samples.

Results

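The EnPGC-1 and Ctrl PIP libraries, 4 in all, were set against the 4 libraries without a polyamide-named compound, SGC-CBP30 and DMSO, to describe across the expressed genes what both polyamide compounds shared. The 8 libraries are the whole series, and the sets follow from the treatment named in the labels. All hold RNA of CD8+ T cells, the cytotoxic lymphocytes, isolated from spleen and lymph node of C57BL/6 mice. Anti-CD3 and anti-CD28 antibodies stimulated the cells, and exposure to EnPGC-1, Ctrl PIP, SGC-CBP30 or the vehicle DMSO lasted 48 hours, 2 libraries each. Age, sex and doses are not in the labels, so compounds could not be matched by dose. Whether the replicates are separate animals or cultures is not stated, so p-values here reflect only how far these libraries spread, technical differences included.

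Pyrrole-imidazole polyamides, abbreviated PIP, are small synthetic molecules that bind the minor groove of DNA and can be made to read short stretches of bases. They can carry a second group that recruits a chromatin enzyme, and a polyamide without such a group serves as a control. EnPGC-1 is named for PGC-1, the family of coactivators that drives genes of mitochondria. SGC-CBP30 blocks the bromodomains of CBP and p300, a pair of histone acetyltransferases. The submitters' design text lists it together with the compounds it calls PIPs. Here it was placed with DMSO, because its name carries no polyamide and it is known as a bromodomain inhibitor.

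The libraries held 38890043 to 55491261 counts and detected 18348 to 19057 genes. Libraries of 1 group could lie apart: the log2 CPM of replicates were correlated across genes with r = 0.929 for EnPGC-1 and 0.98 for Ctrl PIP, and 0.982 for SGC-CBP30 and 0.929 for DMSO. CPM are counts scaled to the TMM-adjusted library total. Where the mean log2 CPM exceeded 3, each gene's deviation from that mean was correlated with transcript length within each library. The Spearman rho was 0.489 and -0.524 in the EnPGC-1 libraries, -0.525 and -0.202 in those of Ctrl PIP, 0.536 and 0.479 in those of SGC-CBP30, and 0.564 and -0.607 in those of DMSO, as a description without a test across genes. Rn18s-rs5, a ribosomal RNA gene, stood at 9044 CPM in EnPGC-1 replicate 2 and 10073 CPM in DMSO replicate 2, while the other 6 libraries had 1119 to 2311 CPM. The length trend averaged -0.19 ± 0.48 in the polyamide libraries and 0.24 ± 0.57 in the others (SD, n = 4 each, exact two-sided permutation p = 0.429). Of 21 such measures per library, the smallest exact two-sided permutation p was 0.229, and adjusted over the 21 it was 1, where 4 against 4 libraries allows no p below 0.0286. The defining markers of CD8 T cells (the CD3 chains, both CD8 chains and the constant region of the T cell receptor alpha chain) summed to 3377 to 4886 CPM in the polyamide libraries and to 3452 to 3953 CPM in the others.

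**Figure D1:**
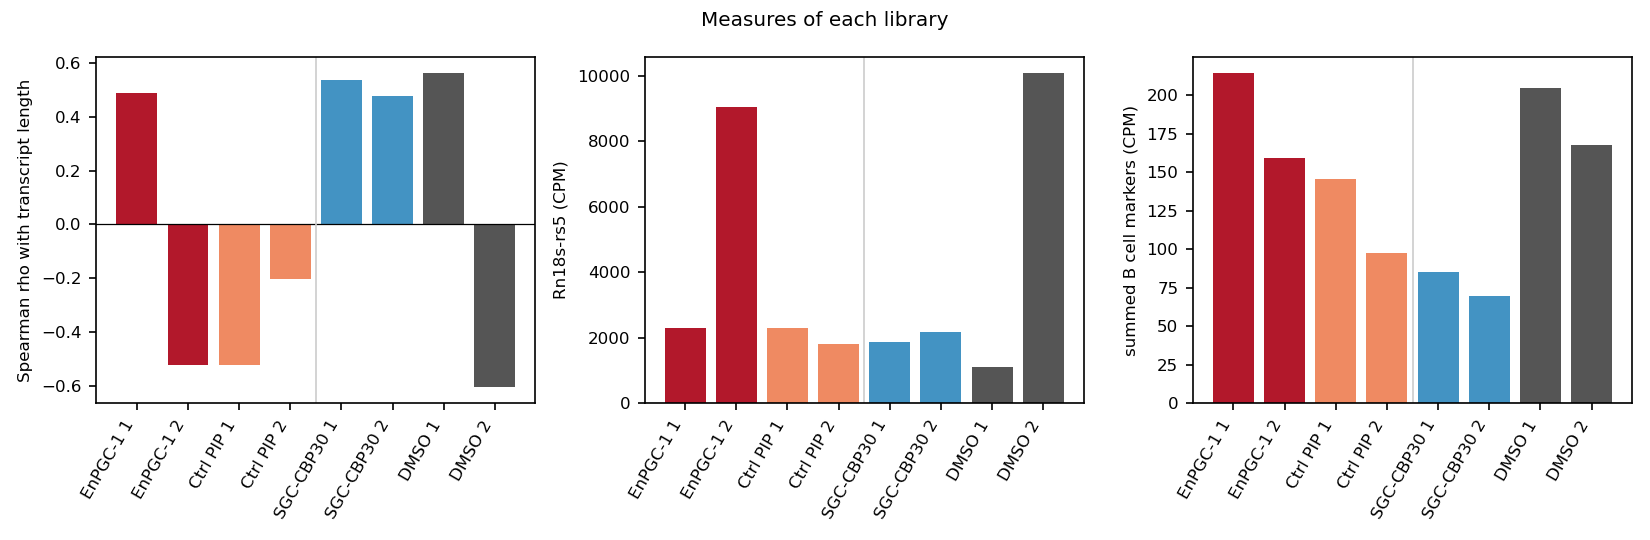
Measures of each library, EnPGC-1 and Ctrl PIP left of the grey line and SGC-CBP30 and DMSO right of it. Bars give the Spearman rho between a gene's deviation and its transcript length, Rn18s-rs5 in CPM, and the summed B cell markers in CPM, and EnPGC-1 replicate 2 and DMSO replicate 2 share both a negative rho and the high Rn18s-rs5.

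Across 16750 tested genes of 45777 in the table, edgeR's quasi-likelihood test with Benjamini-Hochberg adjustment found 0 genes higher and 0 lower in the polyamide libraries, a share of 0% in each direction. At an unadjusted p under 0.05 there were 61 higher (0.364%) and 54 lower (0.322%), 0.687% in either direction. Without any difference a share near 0.05 would be expected. The share seen was below it, and 0 calls are not taken to mean equal levels. DESeq2 called 1 gene higher and 1 lower (97 and 87 at an unadjusted p under 0.05), and limma on the authors' rlog values called 0 and 0 (49 and 52). The gene DESeq2 called lower was Pakap, with 0 counts in each polyamide library, against 0 and 426 counts with SGC-CBP30 and 0 and 99 with DMSO. The gene it called higher was Acta2, smooth muscle actin, with 393 and 0 counts with EnPGC-1 and 12 and 11 with Ctrl PIP, against 0 and 0 with SGC-CBP30 and 77 and 11 with DMSO. Both were named after their values were seen, and in both the libraries of 1 group differ widely. Fits with 1 library left out tested 17339 to 17656 genes. With each library left out in turn edgeR called 0 genes in either direction. The counts at an unadjusted p under 0.05 then moved most without DMSO replicate 2 (402 higher and 530 lower) or replicate 1 (375 and 92), and without EnPGC-1 replicate 2 (143 and 250) or replicate 1 (78 and 174).

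The difference between the sets was small beside the differences within them. The median size of the log2 fold change was 0.116 for polyamide against no polyamide, 0.371 for EnPGC-1 against Ctrl PIP and 0.33 for SGC-CBP30 against DMSO. The first averages 4 libraries on each side and the others 2, so its estimates also carry less noise. A log2 fold change of at least 1 in size was seen for 807 genes (4.82%) between the sets, 2482 (14.8%) between EnPGC-1 and Ctrl PIP, and 1999 (11.9%) between SGC-CBP30 and DMSO. At an unadjusted p under 0.05, EnPGC-1 and Ctrl PIP differed in 750 genes (4.48%) and SGC-CBP30 and DMSO in 735 (4.39%), and edgeR called 0 genes after adjustment in both. DESeq2 called 10 higher and 24 lower for the first and 5 and 57 for the second, and limma 0 for each. The 95% interval of the difference between the sets lay within 1 log2 unit of 0 for 9789 genes (58.4%), and for 8814 (86.2%) of the 10220 genes with a mean of at least 5 CPM. For the other genes the interval leaves room for a 2-fold difference.

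**Figure D2:**
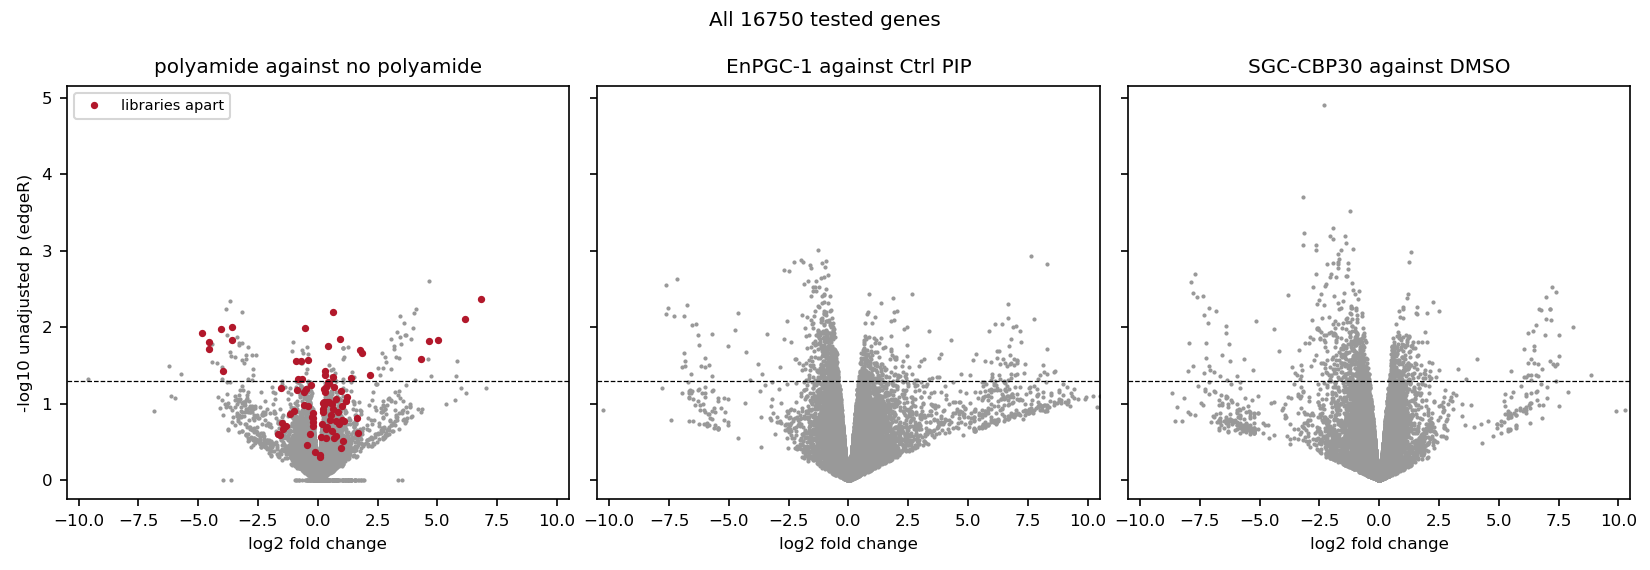
Unadjusted p (−log10, edgeR) against log2 fold change for the 16750 tested genes, in polyamide against no polyamide, EnPGC-1 against Ctrl PIP and SGC-CBP30 against DMSO. The dashed line marks an unadjusted p of 0.05, red points are the genes whose polyamide libraries lie apart from the others, and 3 genes of the middle panel lie beyond its horizontal axis.

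Whether the sets lie apart can also be read from the libraries themselves. All 4 polyamide libraries lay above all 4 others for 56 genes (0.334%) and below them for 35 (0.209%), which is 0.543% of the genes tested. If the 8 libraries were exchangeable, a share of 0.0286 would be expected in either direction, which is more than was seen. The genes given below are therefore a description and not shown to be shared effects. Most of the genes apart had few counts. Of the 56, 19 had a mean of at least 5 CPM in the higher set, and of the 35, 10 did. The gaps were narrow, since among the 19 the lowest polyamide library stood at most 0.1 log2 units above the highest of the others, and among the 10 the gap was at most 0.19. The number of such genes grows when a library is dropped, since fewer libraries have to lie apart. It was 148 higher and 168 lower without EnPGC-1 replicate 1, 137 and 147 without EnPGC-1 replicate 2, 151 and 122 without Ctrl PIP replicate 1, and 133 and 97 without Ctrl PIP replicate 2. It was 116 and 90 without SGC-CBP30 replicate 1, 115 and 70 without SGC-CBP30 replicate 2, 185 and 115 without DMSO replicate 1, and 382 and 659 without DMSO replicate 2. Without the second libraries of both DMSO and EnPGC-1 it was 685 and 896, and without the first libraries 290 and 278. With offsets for transcript length and GC content it was 51 and 59. The genes tested numbered 17339 to 17656 with 1 library left out, 17411 without the second libraries and 17007 without the first. The share expected of exchangeable libraries also rises with fewer libraries, and it was not computed for these fits. The larger counts are therefore not read as shared effects.

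Among the 19 genes that lay above, Prss12, which encodes the secreted protease neurotrypsin, had the smallest unadjusted p. It lies on chromosome 3 at 123446913 to 123506602 (GRCm38.p6) and was at 17.9 and 13.8 CPM with EnPGC-1 and 12.8 and 15.5 CPM with Ctrl PIP, against 7.60 and 7.31 CPM with SGC-CBP30 and 12.4 and 12.5 CPM with DMSO. The sets did not overlap, but the lowest polyamide library, Ctrl PIP replicate 1, stood close to DMSO, and the SGC-CBP30 libraries were far below both. The log2 fold change between the sets was 0.63 (SE 0.16, 95% interval 0.25 to 1.02, edgeR adjusted p = 1). Against SGC-CBP30 it was 1.08 for EnPGC-1 and 0.93 for Ctrl PIP. Against DMSO it was 0.34 for EnPGC-1 and 0.19 for Ctrl PIP. Each pair of these shares its SGC-CBP30 or DMSO libraries. Without the second libraries of DMSO and EnPGC-1 the difference between the sets was 0.73, and without the first 0.53, and with length and GC offsets it was 0.62.

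Because polyamides act at DNA, the start regions of the leading gene in each direction are shown, from 250 bases before to 50 after the RefSeq start on GRCm38.p6. Short motifs, 3 in all, were searched on both strands: the TATA box as TATAAA, the CCAAT box as CCAAT and the GC box as GGGCGG. Their matches are in capitals in the sequences. Of 32851 such windows, 13.6% hold the first, 37.4% the second and 35.7% the third. The window of Prss12, chr3:123446663-123446962 on the plus strand, holds none of them and is 61.3% GC with 19 CG steps, against medians of 52.7% and 7 over all windows. Cbfa2t3, the leading gene among those lower with the polyamides, has 2 starts in the table, both on the minus strand. The first, chr8:122699060-122699359, is 63.7% GC with 10 CG steps and 1 GC box. The second, chr8:122678126-122678425, is 81.7% GC with 53 CG steps, 5 GC boxes and 1 CCAAT box read on the other strand, which overlaps a GC box. A match is a description of these letters and not a binding site, and no recognition sequence of either polyamide was searched, since the sources used here give none.
Prss12: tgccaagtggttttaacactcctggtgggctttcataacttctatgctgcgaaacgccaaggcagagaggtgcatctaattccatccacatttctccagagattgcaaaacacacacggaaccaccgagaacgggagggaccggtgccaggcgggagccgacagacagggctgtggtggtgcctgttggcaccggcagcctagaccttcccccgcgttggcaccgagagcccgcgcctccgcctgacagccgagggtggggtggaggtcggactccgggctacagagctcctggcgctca
Cbfa2t3, first start: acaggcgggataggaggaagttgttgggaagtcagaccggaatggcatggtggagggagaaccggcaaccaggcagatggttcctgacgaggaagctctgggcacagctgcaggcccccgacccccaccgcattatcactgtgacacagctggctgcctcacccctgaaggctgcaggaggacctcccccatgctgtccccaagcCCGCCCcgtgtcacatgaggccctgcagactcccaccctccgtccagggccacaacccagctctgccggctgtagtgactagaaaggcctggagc
Cbfa2t3, second start: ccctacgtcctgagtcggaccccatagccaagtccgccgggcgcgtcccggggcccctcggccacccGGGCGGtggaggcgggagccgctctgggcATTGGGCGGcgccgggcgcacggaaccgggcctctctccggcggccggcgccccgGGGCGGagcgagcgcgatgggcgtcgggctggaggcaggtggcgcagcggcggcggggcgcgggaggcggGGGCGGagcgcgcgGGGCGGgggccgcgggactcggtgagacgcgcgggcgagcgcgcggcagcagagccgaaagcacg

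Among the other genes above all libraries without polyamide, Neurl3, an E3 ubiquitin ligase, was at 204 and 185 CPM with EnPGC-1 and 179 and 198 CPM with Ctrl PIP, against 130 and 130 CPM with SGC-CBP30 and 173 and 147 CPM with DMSO. Its log2 fold change was 0.41 (SE 0.13, 95% interval 0.10 to 0.72, edgeR adjusted p = 1). Siah1a, a RING-type ubiquitin ligase with a close copy, Siah1b, from which reads may not be told apart, was at 40.0 and 39.0 CPM with EnPGC-1 and 33.7 and 35.0 CPM with Ctrl PIP, against 32.6 and 30.5 CPM with SGC-CBP30 and 29.4 and 26.4 CPM with DMSO. Here DMSO and not SGC-CBP30 was the lowest group, and the log2 fold change was 0.31 (SE 0.12, 95% interval 0.03 to 0.60, edgeR adjusted p = 1). Slc17a9, which loads nucleotides into vesicles, was at 45.8 and 50.4 CPM with EnPGC-1 and 48.3 and 47.4 CPM with Ctrl PIP, against 35.3 and 33.5 CPM with SGC-CBP30 and 43.8 and 45.4 CPM with DMSO. The polyamide libraries stood just above DMSO and well above SGC-CBP30, with a log2 fold change of 0.29 (SE 0.12, 95% interval 0.01 to 0.57, edgeR adjusted p = 1).

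The next 8 by p had log2 fold changes of 0.24 to 0.46, with 95% intervals that reached 0, and the last 7 of the 19 had 0.08 to 0.26. Hcst, the adaptor DAP10 through which the receptor NKG2D signals in killer cells, was at 28.4 and 34.1 CPM with EnPGC-1 and 28.6 and 28.2 CPM with Ctrl PIP, against 23.1 and 13.8 CPM with SGC-CBP30 and 26.9 and 24.0 CPM with DMSO. Its log2 fold change was 0.46 (SE 0.19). SGC-CBP30 replicate 2 alone was far below the rest. Ifi47, an interferon-inducible GTPase, ranged over 371 to 443 CPM in the polyamide libraries and 321 to 371 CPM in the others (0.25, SE 0.13). Galnt6, which starts O-linked sugar chains on proteins, ranged over 159 to 169 CPM with and 129 to 148 CPM without polyamide (0.24, SE 0.12). Rabggta, a subunit of the enzyme that attaches lipids to Rab proteins, had 0.26 (SE 0.12), Calhm6, of a family of channel proteins, 0.33 (SE 0.15), and Ifitm10, of the interferon-induced transmembrane family, 0.44 (SE 0.18). Fez2, a relative of a protein of axon growth, had 0.32 (SE 0.15), and Ubtd1, a protein with a ubiquitin-like domain, 0.37 (SE 0.19).

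The genes with at least 5 CPM that lay below all libraries without polyamide numbered 10. Cbfa2t3, a transcriptional co-repressor of blood cells, lies on chromosome 8 at 122625136 to 122699332. It was at 9.91 and 11 CPM with EnPGC-1 and 12.5 and 11.3 CPM with Ctrl PIP, against 15.8 and 16.8 CPM with SGC-CBP30 and 17.9 and 14.3 CPM with DMSO. Its log2 fold change was -0.54 (SE 0.15, 95% interval -0.90 to -0.18, edgeR adjusted p = 1). By compound the log2 fold change was -0.64 and -0.45 against SGC-CBP30 and -0.63 and -0.44 against DMSO for EnPGC-1 and Ctrl PIP in that order. It was -0.65 without the second libraries of DMSO and EnPGC-1 and -0.42 without the first, and -0.39 with length and GC offsets. Rnf157, a RING-type ubiquitin ligase, was at 15.2 and 18.9 CPM with EnPGC-1 and 19.3 and 17.5 CPM with Ctrl PIP, against 24.8 and 27.6 CPM with SGC-CBP30 and 20.4 and 21.3 CPM with DMSO. The groups were apart with SGC-CBP30 highest, and the log2 fold change was -0.40 (SE 0.14, 95% interval -0.74 to -0.06, edgeR adjusted p = 1).

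The other 8 lower genes had log2 fold changes of -0.48 to -0.10, with 95% intervals that crossed 0. Pkp4, a plakophilin of cell junctions, was at 45.7 and 48.1 CPM with EnPGC-1 and 56.0 and 46.6 CPM with Ctrl PIP, against 59.2 and 65.5 CPM with SGC-CBP30 and 56.3 and 60.1 CPM with DMSO (-0.30, SE 0.13). Ctrl PIP replicate 1 and DMSO replicate 1 nearly met. Dclk2, a doublecortin-like kinase, had -0.48 (SE 0.21) and ranged over 8.81 to 17.7 CPM in the polyamide libraries and 17.9 to 21.1 CPM in the others, with the lowest value in Ctrl PIP replicate 2. Cul4a, a scaffold of ubiquitin ligases, had -0.20 (SE 0.12), Gas8, a protein of cilia, -0.25 (SE 0.16), and Slc12a4, a potassium and chloride cotransporter, -0.21 (SE 0.13). Lrrfip2, a protein of Toll-like receptor signalling, had -0.20 (SE 0.13), Rrbp1, a protein of the endoplasmic reticulum membrane, -0.19 (SE 0.13), and Ppil2, a cyclophilin, -0.10 (SE 0.12).

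**Figure D3:**
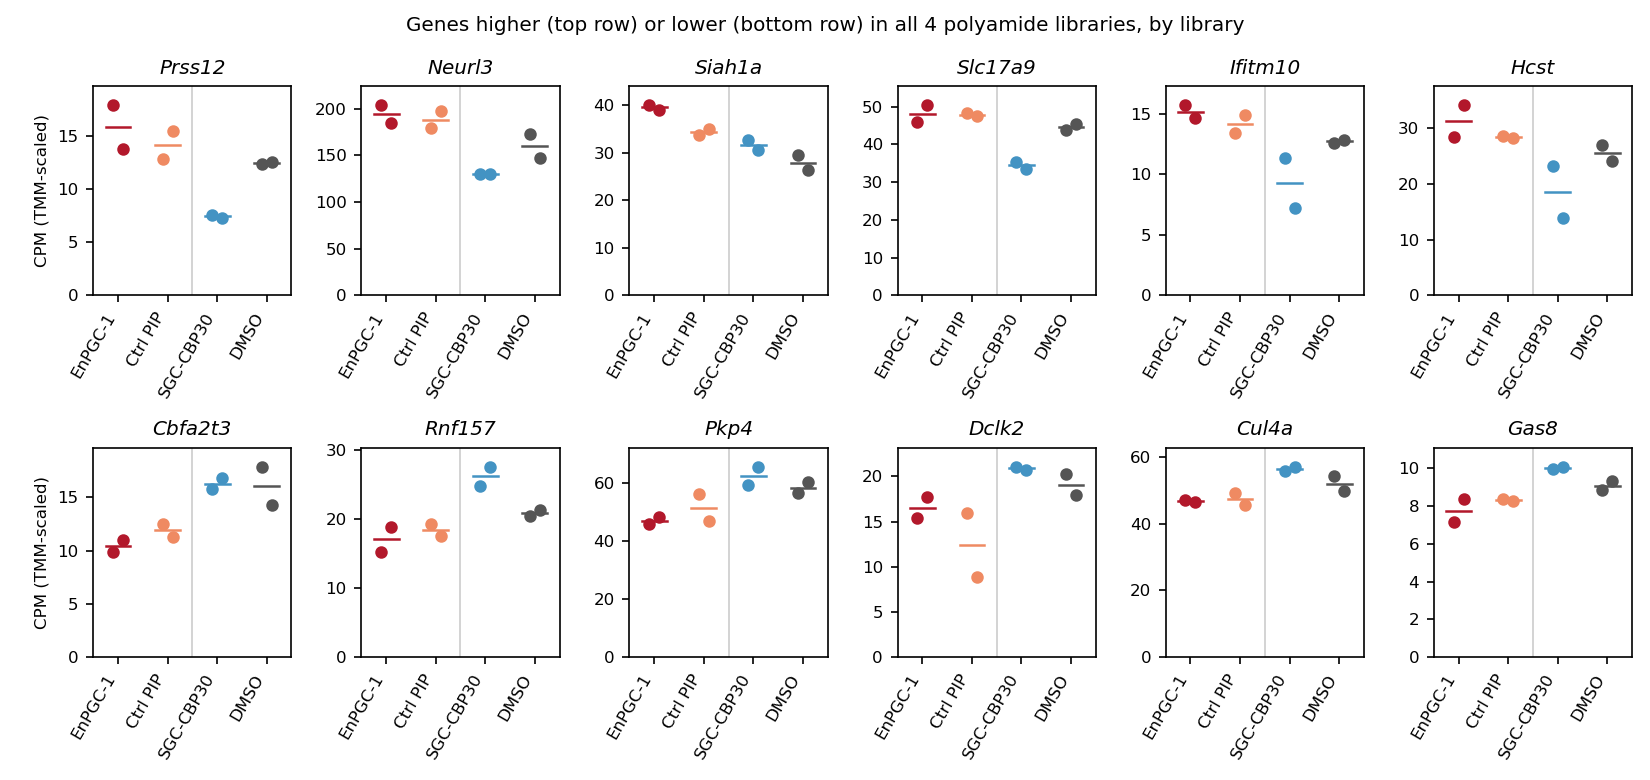
CPM (TMM-scaled, linear axis from 0) of the 6 genes with the smallest p among those above (top row) and below (bottom row) all libraries without polyamide. Points are libraries, short lines group means, and the grey line divides the polyamide groups from the others. Prss12, Neurl3, Slc17a9, Ifitm10 and Hcst have SGC-CBP30 as the lowest group.

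Of the genes with few counts, 5 are given by their counts in each library, and all 5 were picked after their values were seen. Lrrc39, a leucine-rich repeat protein of muscle, had 19 and 14 counts with EnPGC-1 and 16 and 6 with Ctrl PIP, against 0 in the 4 others. With 3 counts in each library as the floor of the others, its level of 0.289 CPM in the polyamide libraries was at least 4.79-fold higher. Cubn, the endocytic receptor cubilin, had 7 and 4 counts with EnPGC-1 and 15 and 11 with Ctrl PIP, against 0 in the others, at least 3.13-fold higher. Dnah1, a dynein heavy chain of cilia, had 0 and 0 counts with EnPGC-1 and 0 and 5 with Ctrl PIP, against 23 and 27 with SGC-CBP30 and 10 and 10 with DMSO. Map1b, a microtubule-associated protein of neurons, had 0 and 0 with EnPGC-1 and 0 and 3 with Ctrl PIP, against 15 and 15 with SGC-CBP30 and 8 and 6 with DMSO. Cebpd, a transcription factor of inflammation, had 27 and 13 counts with EnPGC-1 and 16 and 17 with Ctrl PIP, against 3 and 3 with SGC-CBP30 and 8 and 10 with DMSO. The sets did not overlap for any of the 5. The edgeR adjusted p was 1 for each. Floors cover counting error only.

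A gene that both polyamides move alike from DMSO and SGC-CBP30 should have the same sign in comparisons that share no library. Such pairs are EnPGC-1 against DMSO with Ctrl PIP against SGC-CBP30, and EnPGC-1 against SGC-CBP30 with Ctrl PIP against DMSO. Where SGC-CBP30 and DMSO differ, a gene moved alike from DMSO alone can have opposite signs. The log2 fold change of Gzmb was -2.12 for EnPGC-1 and -0.64 for Ctrl PIP against DMSO, and 2.54 for Ctrl PIP against SGC-CBP30. Matching signs therefore cannot decide whether an effect against DMSO alone is shared. The signs matched for 4104 of 16750 genes (24.5%) in the first pair and for 6337 (37.8%) in the second. Across genes, which are not independent replicates and whose libraries differ in the length trend given above, r was -0.279 and -0.38. For the 9399 genes with a mean log2 CPM above 3 the signs matched for 18.8% and 36%, and r was -0.752 and -0.351. At an unadjusted p under 0.05, 2.61% of the tested genes differed in EnPGC-1 against DMSO and 3.99% in Ctrl PIP against SGC-CBP30. Of 180 tested genes which did so in both, 2 had the same sign. Among the genes with a mean log2 CPM above 3 these counts were 122 and 0. In the second pair 14 tested genes were under that p in both, and 2 of them had the same sign. The share of matching signs in the first pair moved with single libraries. It was 56.4% without DMSO replicate 2, 43.1% without EnPGC-1 replicate 1, and 21.1% to 29.3% with any other library left out. In the second pair it was 36.1% to 48.8% with 1 library left out.

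**Figure D4:**
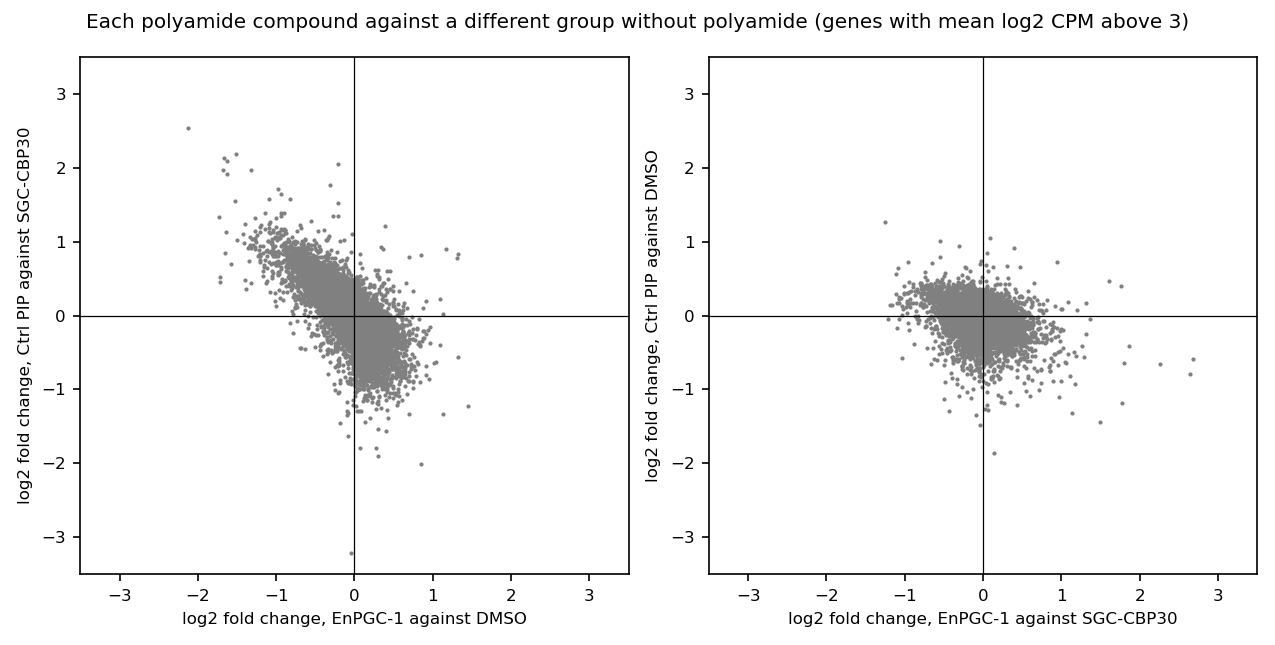
Log2 fold changes of the 9399 genes with a mean log2 CPM above 3, in EnPGC-1 against DMSO and Ctrl PIP against SGC-CBP30 (left), and in EnPGC-1 against SGC-CBP30 and Ctrl PIP against DMSO (right), with 1 gene of the right panel beyond the axes. Genes that both compounds move alike from DMSO and SGC-CBP30 would lie at the lower left or upper right. Of the genes plotted, 18.8% and 36% have matching signs.

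The genes with the smallest p between EnPGC-1 and Ctrl PIP, 3 in each direction whose libraries did not overlap, were placed beside the other groups. Uchl1, a deubiquitinating enzyme of neurons, was at 14.2 and 4.81 CPM with EnPGC-1, against 1.1 and 1.89 CPM with Ctrl PIP. SGC-CBP30 (1.29 and 1.85 CPM) and DMSO (1.62 and 1.44 CPM) lay with Ctrl PIP. Serpini1, the protease inhibitor neuroserpin, was at 19.9 and 22.7 CPM with EnPGC-1, against 11.9 and 11.3 CPM with Ctrl PIP. Tacc2, a coiled-coil protein of the spindle, was at 4.83 and 5.35 CPM with EnPGC-1, against 11.7 and 13.0 CPM with Ctrl PIP. SGC-CBP30 (6.92 and 7.29 CPM) and DMSO (8.11 and 9.17 CPM) lay between them. Its log2 fold change was -1.28 (95% interval -1.83 to -0.73) between the compounds and 0.02 (-0.36 to 0.40) between the sets. Lad1, ladinin of basement membranes, was at 12.8 and 21.2 CPM with EnPGC-1, against 58.4 and 77.9 CPM with Ctrl PIP. SGC-CBP30 and DMSO ranged over 32.2 to 55.2 CPM, between the compounds. Septin11, a filament-forming GTPase, was at 68.0 and 68.9 CPM with EnPGC-1, against 124 and 140 CPM with Ctrl PIP, and Cpq, a carboxypeptidase, at 5.46 and 8.21 CPM with EnPGC-1, against 2.34 and 1.39 CPM with Ctrl PIP.

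EdgeR's quasi-likelihood test gave these 6 genes an adjusted p of 0.812 for EnPGC-1 against Ctrl PIP. DESeq2 called all 6, with adjusted p values of 0.00175 (Tacc2, Lad1) to 0.0487 (Serpini1). The 6 were picked from the same counts in the same comparison, so this is not independent support. Among the 17789 genes with an adjusted p, DESeq2 called 10 higher and 24 lower. Leaving out the second libraries of DMSO and EnPGC-1 gave 2430 higher and 2753 lower calls with edgeR, and leaving out the first gave 5 and 36. Those fits tested 17411 and 17007 genes in that order. Each has 1 EnPGC-1 library, which is assumed to vary like Ctrl PIP and SGC-CBP30, whose replicates set the spread. For the difference between the sets the same fits called 0 and 0 genes without the second libraries, and 1 higher and 0 lower without the first. That gene was Evi2, with 1038 and 6449 counts with EnPGC-1 and 4689 and 2605 with Ctrl PIP, against 6607 and 5662 with SGC-CBP30 and 3708 and 0 with DMSO, and the library at 0 was the only one of DMSO in that fit. The Evi2 locus overlaps Evi2a, Evi2b and Nf1, so the assignment of its reads is uncertain.

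No member of the PGC-1 family, for which EnPGC-1 is named, passed the test between the sets. Ppargc1a, which encodes PGC-1 alpha, had 74 and 10 counts with EnPGC-1 and 0 and 0 with Ctrl PIP, against 0 and 3 with SGC-CBP30 and 14 and 0 with DMSO. A single library held most of its counts, the groups overlapped, and the difference between the sets had an interval of -2.92 to 1.89 log2 units. Ppargc1b, the beta form, was at 32.5 and 10 CPM with EnPGC-1 and 11.8 and 15.6 CPM with Ctrl PIP, against 17.4 and 14.5 CPM with SGC-CBP30 and 27.2 and 10.6 CPM with DMSO (-0.02, SE 0.44). Pprc1, the related coactivator, ranged over 29.9 to 70.0 CPM in the polyamide libraries and 33.6 to 67.0 CPM in the others (0.24, SE 0.23). Cpt1a, the gate of fatty acid entry into mitochondria, was at 154 and 170 CPM with EnPGC-1 and 90.3 and 82.9 CPM with Ctrl PIP, against 153 and 155 CPM with SGC-CBP30 and 145 and 66.1 CPM with DMSO. EnPGC-1 lay above Ctrl PIP, while SGC-CBP30 was as high as EnPGC-1.

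For lists of genes, the counts of members above 0 are read against all 16750 genes, of which 46.1% were above 0 with a median log2 fold change of -0.01. Medians of both compounds against DMSO, or against SGC-CBP30, share those control libraries. The quasi-likelihood test of edgeR called 0 members of any of the 36 lists. With 1 library left out at a time, the median of 31 lists changed sign in at least 1 of the 8 fits. The 5 others were cytokines, cytotoxic molecules, oxidative stress, apoptosis and erythroid markers. The median of the cytotoxic molecules was 0 without Ctrl PIP replicate 1, and -0.01 without the second libraries of DMSO and EnPGC-1. Of 23 tested regulators of mitochondrial biogenesis 10 were above 0, with a median of -0.01, and the members with the smallest p had log2 fold changes of 0.17 (Nfe2l2, a factor of antioxidant genes, SE 0.16), 0.26 (Top1mt, the mitochondrial topoisomerase, SE 0.25) and -0.14 (Polg, the mitochondrial DNA polymerase, SE 0.13). The value of Polg was 0.01 with length and GC offsets. Of 74 genes of the respiratory chain and ATP synthase 44 were above 0 (median 0.01), of 78 mitochondrial ribosomal proteins 52 (median 0.02), of 13 mitochondrially encoded genes 6 (median -0.01) and of 23 genes of fatty acid oxidation 10 (median -0.04). Between the polyamides themselves, EnPGC-1 against Ctrl PIP, the medians of the respiratory chain and mitochondrial ribosomal proteins were -0.33 and -0.38. Of these libraries EnPGC-1 replicate 1 alone was low. As deviations from each gene's mean over all libraries, respiratory chain medians were -0.579 and 0.238 with EnPGC-1, against 0.327 and 0.103 with Ctrl PIP. Those of mitochondrial ribosomal proteins were -0.466 and 0.126, against 0.324 and 0.125. Between the sets the direction of these lists also turned with the libraries used. Without the second libraries of DMSO and EnPGC-1, 71 of 74 respiratory chain genes and 74 of 78 mitochondrial ribosomal proteins were above 0, and without the first libraries 10 of 74 and 17 of 78.

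Killer cell functions gave a mixed picture. Gzmb, which encodes granzyme B, was at 79.7 and 83.4 CPM with EnPGC-1 and 272 and 182 CPM with Ctrl PIP, against 36.4 and 41.6 CPM with SGC-CBP30 and 220 and 490 CPM with DMSO. The groups of each set differed severalfold, and between the sets the log2 fold change was 0.21 (SE 0.28). Ifng, which encodes interferon gamma, ranged over 3.36 to 9.15 CPM in the polyamide libraries and 2.28 to 12.6 CPM in the others (0.22, SE 0.28). Of 19 cytotoxic effector molecules 11 were above 0 with a median of 0.01. The members with the smallest p were Nkg7, a protein of cytotoxic granules (0.39, SE 0.19), Ctsw, the lymphocyte protease cathepsin W (0.28, SE 0.16), and Gzmm, granzyme M (0.44, SE 0.27). Nkg7 was at 106 and 167 CPM with EnPGC-1 and 175 and 142 CPM with Ctrl PIP, against 73.8 and 67.8 CPM with SGC-CBP30 and 160 and 197 CPM with DMSO. The polyamide libraries stood above SGC-CBP30 and overlapped DMSO. Myc, a transcription factor of growth, was also lowest with SGC-CBP30, with 97.8 and 85.9 CPM with EnPGC-1 and 153 and 124 CPM with Ctrl PIP, against 71.1 and 62.9 CPM with SGC-CBP30 and 147 and 208 CPM with DMSO (0.05, SE 0.17).

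Cytokines and chemokines had a larger share above 0 than all genes, 16 of 20 with a median of 0.14, and 15 of 22 and 15 of 20 without the second or the first libraries of EnPGC-1 and DMSO. Lta, which encodes lymphotoxin alpha, was at 12.5 and 17.2 CPM with EnPGC-1 and 22.4 and 42.5 CPM with Ctrl PIP, against 10.4 and 12.2 CPM with SGC-CBP30 and 19.0 and 15.3 CPM with DMSO. The sets overlapped, Ctrl PIP replicate 2 was highest, and the log2 fold change was 0.66 (SE 0.25, 95% interval 0.06 to 1.25, edgeR adjusted p = 1). Xcl1, the chemokine lymphotactin, was at 17.8 and 21.3 CPM with EnPGC-1 and 21.5 and 15.2 CPM with Ctrl PIP, against 5.06 and 5.69 CPM with SGC-CBP30 and 15.0 and 33.7 CPM with DMSO (0.73, SE 0.28, 95% interval 0.05 to 1.41, edgeR adjusted p = 1). SGC-CBP30 alone was low. Ccl9, another chemokine, ranged over 0.371 to 2.26 CPM in the polyamide libraries and 0.168 to 1.11 CPM in the others (1.40, SE 0.59). The medians of this list were -0.57 for EnPGC-1 and -0.37 for Ctrl PIP against DMSO, and 0.47 and 1.29 against SGC-CBP30, so its sign depended on whether SGC-CBP30 or DMSO was set against the compound. Between the sets its median was 0.06 without EnPGC-1 replicate 1 and 0.29 without replicate 2.

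Genes of activation and of inhibition showed no common direction. Of 27 genes of activation and costimulation 11 were above 0 with a median of -0.02, among them Cd44 (-0.20, SE 0.16), Irf4 (-0.23, SE 0.22) and Nfatc1 (-0.24, SE 0.24), an adhesion receptor and a pair of transcription factors of activated T cells. Irf4 was at 24.6 and 38.7 CPM with EnPGC-1 and 68.4 and 60.1 CPM with Ctrl PIP, against 40.1 and 39.6 CPM with SGC-CBP30 and 52.8 and 88.4 CPM with DMSO. EnPGC-1 lay with SGC-CBP30, and Ctrl PIP with DMSO. Of 18 inhibitory receptors and exhaustion factors 7 were above 0 with a median of -0.11. Entpd1, the ectonucleotidase CD39, was at 2.21 and 3.27 CPM with EnPGC-1 and 2.52 and 2.64 CPM with Ctrl PIP, against 3.79 and 3.43 CPM with SGC-CBP30 and 5.94 and 3.65 CPM with DMSO. The sets did not overlap, and its log2 fold change was -0.65 (SE 0.27, 95% interval -1.28 to -0.01, edgeR adjusted p = 1). Ctla4, an inhibitory receptor, had -0.22 (SE 0.18), and Cd244a, a receptor of killer cells, had 17, 3, 23 and 12 counts in the polyamide libraries, against 0 and 0 with SGC-CBP30 and 14 and 19 with DMSO (edgeR adjusted p = 1).

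The lists of the cell cycle and of glycolysis stood further below 0 than all genes. Of 40 genes of the cell cycle and replication 1 was above 0, with a median of -0.13 and a range of -0.47 to 0.10. Mki67, the proliferation marker Ki-67, was at 384 and 673 CPM with EnPGC-1 and 654 and 731 CPM with Ctrl PIP, against 924 and 1230 CPM with SGC-CBP30 and 680 and 628 CPM with DMSO (-0.47, SE 0.23, 95% interval -1.01 to 0.07, edgeR adjusted p = 1). SGC-CBP30 stood above the rest and EnPGC-1 replicate 1 below, while Ctrl PIP and DMSO overlapped. E2f8, a factor of the late cell cycle (-0.23, SE 0.20), and Cenpf, a centromere protein (-0.31, SE 0.30), followed. The list's medians were -0.50 for EnPGC-1 and 0.25 for Ctrl PIP against DMSO, and -0.54 and 0.27 against SGC-CBP30, opposite signs for the compounds against either group. The EnPGC-1 libraries differed, however. As deviations from each gene's mean over all libraries, the list's medians were -1.155 and 0.177 with EnPGC-1 and 0.409 and 0.363 with Ctrl PIP. They were -0.408 and 0.538 with DMSO and -0.109 and 0.335 with SGC-CBP30. When the second libraries of DMSO and EnPGC-1 were left out, 5 of 40 were above 0, and without the first libraries 9 of 40. The median between the sets was 0.13 without EnPGC-1 replicate 1 and 0.15 without DMSO replicate 2, so each of those libraries turned its sign. In bulk RNA, fewer cycling cells and less of these messages per cell cannot be told apart.

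Glycolysis had 2 of 25 genes above 0 and a median of -0.20. Hk2, hexokinase 2, was at 12.8 and 18.2 CPM with EnPGC-1 and 59.4 and 50.3 CPM with Ctrl PIP, against 27.1 and 33.7 CPM with SGC-CBP30 and 24.2 and 73.6 CPM with DMSO (-0.40, SE 0.35). EnPGC-1 was lowest and Ctrl PIP among the highest. Hif1a, the hypoxia-inducible factor, was at 291 and 244 CPM with EnPGC-1 and 191 and 157 CPM with Ctrl PIP, against 341 and 357 CPM with SGC-CBP30 and 382 and 141 CPM with DMSO (-0.49, SE 0.31), and Eno2, an enolase, had -0.42 (SE 0.30). The list's medians were -0.72 for EnPGC-1 and -0.01 for Ctrl PIP against DMSO, and -0.41 and 0.30 against SGC-CBP30. Without the second libraries of DMSO and EnPGC-1, 8 of 25 were above 0, and without the first libraries 1 of 25. The median was 0.33 without DMSO replicate 2 and -0.01 without EnPGC-1 replicate 1.

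For cholesterol synthesis and ribosome biogenesis the sign between the sets was not stable. Of 25 genes of cholesterol synthesis 3 were above 0 with a median of -0.07, and without the second libraries of DMSO and EnPGC-1 16 of 25 were, with a median of 0.04. It was 0.19 without DMSO replicate 2. Stard4, a cholesterol carrier, was at 43.2 and 61.1 CPM with EnPGC-1 and 87.6 and 76.4 CPM with Ctrl PIP, against 62.0 and 80.0 CPM with SGC-CBP30 and 58.5 and 104 CPM with DMSO (-0.22, SE 0.23). The sets overlapped, and EnPGC-1 replicate 1 was lowest. Of 34 MYC targets and ribosome biogenesis genes 21 were above 0 with a median of 0.02, and 32 without the second and 1 without the first libraries of EnPGC-1 and DMSO. Odc1, the first enzyme of polyamine synthesis, was at 145 and 207 CPM with EnPGC-1 and 397 and 360 CPM with Ctrl PIP, against 212 and 267 CPM with SGC-CBP30 and 232 and 552 CPM with DMSO. Wdr12, a factor of the large ribosomal subunit, had -0.20 (SE 0.12) and Rrp9, of the small nucleolar particles, 0.10 (SE 0.21).

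Responses to a foreign or DNA-binding compound were looked for in lists of stress genes. Of 31 genes of oxidative stress and xenobiotic response 22 were above 0, with a median of 0.20, and the medians of each compound were 0.24 for EnPGC-1 and 0.05 for Ctrl PIP against DMSO, and 0.21 and 0.15 against SGC-CBP30. Mt1, a metallothionein that binds zinc and copper, was at 20.4 and 32.5 CPM with EnPGC-1 and 9.60 and 4.59 CPM with Ctrl PIP, against 5.01 and 3.26 CPM with SGC-CBP30 and 8.18 and 13.2 CPM with DMSO. EnPGC-1 alone stood above the rest, Ctrl PIP overlapped both groups without polyamide, and the log2 fold change between the sets was 1.04 (SE 0.33, 95% interval 0.24 to 1.84, edgeR adjusted p = 1). Gclm, of glutathione synthesis, was at 43.9 and 20.8 CPM with EnPGC-1 and 27.9 and 33.0 CPM with Ctrl PIP, against 21.7 and 24.3 CPM with SGC-CBP30 and 27.5 and 23.6 CPM with DMSO (0.37, SE 0.25). Gstm1, a glutathione transferase, was at 5.54 CPM in EnPGC-1 replicate 1 and at 0.927 to 2.02 CPM in the other 7 libraries (0.81, SE 0.53). Without the first libraries of EnPGC-1 and DMSO 16 of 29 members of the list were above 0, with a median of 0.05, and without the second 24 of 31, with a median of 0.24. It was 0.01 without EnPGC-1 replicate 1.

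The p53 targets, which answer DNA damage, were split evenly. Of 28 targets 14 were above 0 with a median of 0.01, and of 28 genes of DNA damage response and repair 6 were (median -0.11). Cdkn1a, which encodes the cell cycle inhibitor p21, was at 6.78 and 12.9 CPM with EnPGC-1 and 12.6 and 5.09 CPM with Ctrl PIP, against 4.88 and 3.86 CPM with SGC-CBP30 and 11.6 and 21.8 CPM with DMSO (0.12, SE 0.39). Perp, a p53 target of cell death, was at 20.7 and 5.22 CPM with EnPGC-1, at 2.40 and 2.77 CPM with Ctrl PIP and at 1.99 to 5.44 CPM without polyamide (0.75, SE 0.45). EnPGC-1 replicate 1 held the high value. Plk3 (0.29, SE 0.26) and Aen (0.22, SE 0.26), a stress kinase and a nuclease of apoptosis, had 95% intervals that crossed 0. Of 24 apoptosis regulators 5 were above 0 (median -0.05). Bik, a killer protein of the BCL2 family, was at 0.583 and 0.576 CPM with EnPGC-1 and 0.740 and 0.694 CPM with Ctrl PIP, against 0.994 and 1.14 CPM with SGC-CBP30 and 1.55 and 0.869 CPM with DMSO. The sets did not overlap, with a log2 fold change of -0.81 (SE 0.33, 95% interval -1.61 to -0.01, edgeR adjusted p = 1). Bcl2l11, which encodes BIM, had -0.25 (SE 0.12) and Bmf, another killer protein, -0.33 (SE 0.25). Without the first libraries of EnPGC-1 and DMSO 13 of the 24 regulators were above 0.

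The acetyltransferase and bromodomain genes, the protein class that SGC-CBP30 addresses, had 10 of 34 members above 0 with a median of -0.14, and 7 without the second and 11 without the first libraries of EnPGC-1 and DMSO. Crebbp and Ep300 encode CBP and p300. Ep300 was at 216 and 77.9 CPM with EnPGC-1 and 81.5 and 93.8 CPM with Ctrl PIP, against 205 and 167 CPM with SGC-CBP30 and 211 and 51.2 CPM with DMSO. The log2 fold change was -0.46 (SE 0.50), with high values in EnPGC-1 replicate 1, DMSO replicate 1 and both SGC-CBP30 libraries. Those 4 are the libraries with a positive length trend, and the median transcript of the list was 6072 bases long, against 2928 over all genes tested. With length and GC offsets the difference was -0.24 for Ep300, and the median of the list was -0.05. The median was 0.14 without DMSO replicate 1. What transcript length contributes to these values was not tested, and both SGC-CBP30 libraries have the positive trend. Crebbp was high in the same 4 libraries (-0.38, SE 0.46). Taf1, a subunit of the general factor TFIID (-0.21, SE 0.15), and Atad2, a bromodomain protein of dividing cells (-0.19, SE 0.15), had the smallest p after Cecr2, which had at most 24 counts in a library.

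Messages of other cell types differed between the libraries of either set. Of 17 B cell markers 14 were above 0, with a median of 0.46, and their summed level ranged over 97.47 to 214 CPM in the polyamide libraries and 69.39 to 204.9 CPM in the others (exact two-sided permutation p = 0.571). Their median was -0.06 without Ctrl PIP replicate 1. The list's medians were 0.02 for EnPGC-1 and -1.25 for Ctrl PIP against DMSO, and 2.13 and 0.89 against SGC-CBP30. Cd74, the invariant chain of MHC class II, was at 60.9 and 57.4 CPM with EnPGC-1 and 55.6 and 38.8 CPM with Ctrl PIP, against 28.7 and 23.2 CPM with SGC-CBP30 and 69.3 and 68.6 CPM with DMSO (0.32, SE 0.16). Cd22, a B cell receptor, had 0.78 (SE 0.36), and Vpreb3, of the pre-B cell receptor, had 17, 8, 0 and 0 counts in the polyamide libraries, against 25, 8, 26 and 6 in the others (edgeR adjusted p = 1). None of the 5 defining B cell markers was at 0 in any library. Of the myeloid list 11 of 14 were above 0 (median 0.34, and -0.35 without EnPGC-1 replicate 1), of 8 erythroid and platelet markers 5 (median 0.52, 0.15 without EnPGC-1 replicate 1 and 1.26 without SGC-CBP30 replicate 1), and of 11 NK cell markers 6 (median 0.02). Of 7 CD4 and regulatory T cell markers 2 were above 0 (median -0.17, and 0.31 without DMSO replicate 1), and of 5 stromal and endothelial markers 1 (median -0.05, and 0.06 without Ctrl PIP replicate 1). Csf1r, a defining myeloid marker, was at 0 counts in EnPGC-1 replicate 2, Ctrl PIP replicate 1 and SGC-CBP30 replicate 2. What these cells contribute to the differences above was not tested. Cd8a, a chain of the CD8 receptor, was at 1190 and 1240 CPM with EnPGC-1 and 927 and 904 CPM with Ctrl PIP, against 1070 and 924 CPM with SGC-CBP30 and 1200 and 911 CPM with DMSO (0.04, SE 0.17).

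**Figure D5:**
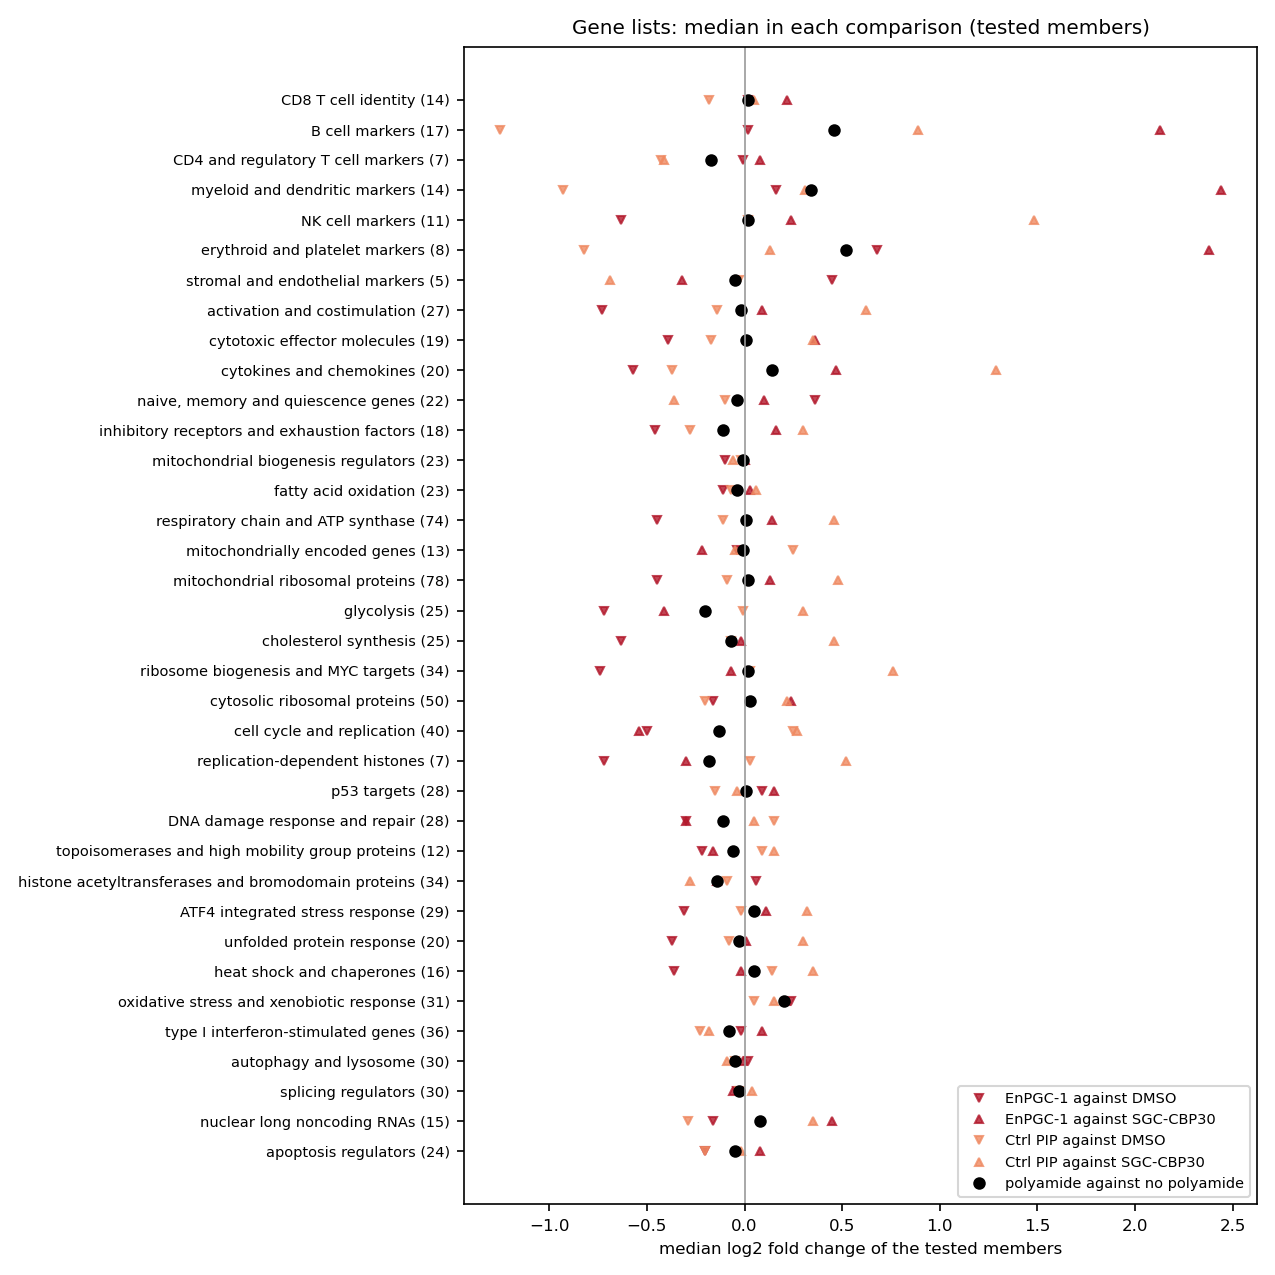
Median log2 fold change of the tested members of the gene lists (number in brackets), with black circles for polyamide against no polyamide and triangles for each compound against SGC-CBP30 (pointing up) and DMSO (pointing down). The black circles lie between -0.20 and 0.52, while the triangles over all lists reach from -1.25 to 2.44. The triangles of a single list often lie on both sides of 0. Triangles of the same direction share their control libraries.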

How the data were processed

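RNA of 8 libraries was made with an RNeasy kit and a TruSeq Stranded mRNA kit, per the labels' protocols. HISAT2, StringTie, DESeq2 and mm10 are named in the submitters' processing notes, with neither role nor version. How reads were counted, on which strand, against which annotation and after what filtering was not given in the sources used here. The authors deposited whole-number read counts of 45777 genes and regularised log2 values (rlog) of 16442 genes, and per the file headers both tables name the libraries. The header of the rlog table is shifted left by 1 column, so columns were read by number.

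The count test used edgeR 4.0.16 in R 4.3.3 with TMM factors, its expression filter by group (16750 genes kept) and a robust quasi-likelihood fit of 4 group means with 4 residual degrees of freedom, tested on simulated data first. Polyamide against no polyamide was the mean of the EnPGC-1 and Ctrl PIP log levels minus the mean of the SGC-CBP30 and DMSO log levels. P-values were adjusted by Benjamini-Hochberg over all tested genes at 0.05, and fold changes are log2, with 95% intervals from the same fit. CPM are TMM-scaled, and log2 CPM use a prior count of 2. RefSeq names (GRCm38.p6) matched 99.8% of the gene IDs. The longest GENCODE M21 transcript gave length and GC for 92.2% of tested genes.

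Genes are named where all libraries of the sets lay apart at 5 CPM or more in the higher set, up to 12 per direction by p. Up to 3 members by p are named from each of 14 of the 36 lists, 3 per direction from EnPGC-1 against Ctrl PIP, besides 11 genes of the study's subject. Results on some named members are not reported here. Members, lists and this rule were chosen with earlier results of these data known. Alternatives were DESeq2 1.42.0, limma 3.58.1 on rlog values, DESeq2 size factors, no filter, a prior count of 0.5, 2 sets in place of 4 groups, a replicate block, length and GC offsets (mgcv 1.9.3) and leaving out libraries. Counts of list members above 0 without the first or second libraries of both DMSO and EnPGC-1 were added after seeing the data. Intervals and floors cover counting error and the spread between libraries only.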

Additional observations from a re-analysis of the deposited data

Results flagged for a closer look

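Libraries that stood apart within a set of 4 were looked for over 86 sets, where chance alone gives about 1 in 20, and 14 were found. Each set of 4 mixes 2 compounds. Among the polyamide libraries, EnPGC-1 replicate 1 stood apart by its 19024 detected genes (18431 to 18474 in the other 3) and by its summed myeloid markers of 9.52 CPM (2.25 to 2.48 CPM). It also held the highest Ppargc1a at 1.80 CPM (0 to 0.186 CPM), the highest Ep300 at 216 CPM (77.9 to 93.8 CPM), and the lowest Gas8 at 7.14 CPM (8.27 to 8.38 CPM) and Ppil2 at 98.4 CPM (104 CPM). EnPGC-1 replicate 2 stood apart by Rn18s-rs5 at 9044 CPM (1799 to 2311 CPM), by Hcst at 34.1 CPM (28.2 to 28.6 CPM) and by a low Rrbp1 at 66.8 CPM (84.6 to 86.1 CPM).

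Among the libraries without polyamide, DMSO replicate 2 stood apart by a rho with transcript length of -0.607 (0.479 to 0.564 in the other 3), by Rn18s-rs5 at 10073 CPM (1119 to 2166 CPM) and by a low Cpt1a at 66.1 CPM (145 to 155 CPM). DMSO replicate 1 stood apart by Ppargc1a at 0.333 CPM (0 to 0.056 CPM), and SGC-CBP30 replicate 1 by Slc12a4 at 42.5 CPM (33.3 to 34.6 CPM).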

How the results depend on the processing

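For polyamide against no polyamide, edgeR called 0 genes in either direction under each setting run except 1 higher when the first libraries of EnPGC-1 and DMSO were left out, and DESeq2 called 1 higher and 1 lower. Among unadjusted p values under 0.05 the replicate block gave 59 higher and 61 lower, length and GC offsets 81 and 60, no filter 91 and 84, and 2 sets in place of 4 groups 28 and 29. The labels do not say what a replicate number marks. Deviations of same-numbered libraries correlated between -0.252 and 0.666 over the 6 pairs of groups, with 0.666 for EnPGC-1 with DMSO, and the replicate block called 0 genes. With the second libraries of EnPGC-1 and DMSO left out, with the first left out, and with DESeq2, calls were 2430, 5 and 10 higher and 2753, 36 and 24 lower for EnPGC-1 against Ctrl PIP, and 4, 3089 and 5 higher and 11, 3225 and 57 lower for SGC-CBP30 against DMSO. Without the second libraries 17411 genes were tested, and without the first 17007. DESeq2 gave an adjusted p to 17789 genes for EnPGC-1 against Ctrl PIP and to 16928 for SGC-CBP30 against DMSO. The fits without 2 libraries assume that the lone EnPGC-1 and DMSO libraries vary like the other groups. The common coefficient of variation was 0.161 in these fits, against 0.415 with all 8. Genes with the sets apart numbered 685 higher and 896 lower without the second and 290 and 278 without the first libraries, 115 to 382 higher and 70 to 659 lower with 1 library left out, which fewer libraries give by construction, and 59 lower with length and GC offsets. The share of matching signs in the first disjoint pair was 38.2% without the second libraries and 21.1% to 56.4% with 1 left out. The cause of these shifts was not tested.

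Of 79 named genes, values under alternatives numbered 1415, of which 1352 kept direction and side of the threshold, 13 passed it newly and 50 turned sign. The genes named from EnPGC-1 against Ctrl PIP were scored in that comparison, and the rest between the sets. All 13 new passes were in EnPGC-1 against Ctrl PIP, and no named gene passed between the sets. The genes that turned had unadjusted p values of at least 0.165 with all libraries. With 1 library left out the log2 fold change spanned -1.73 to 2.52 for Ppargc1a, -0.56 to 0.41 for Ppargc1b, -0.05 to 0.45 for Pprc1, -0.01 to 0.56 for Gzmb, -0.05 to 0.19 for Myc, -0.06 to 0.16 for Cd8a, -0.34 to 0.24 for Cpt1a, -0.77 to 0.25 for Crebbp, -0.91 to 0.23 for Ep300 and -0.26 to 0.39 for Cdkn1a. It spanned -0.04 to 1.19 for Gstm1, -0.69 to 0.11 for Hk2, -0.38 to 0.02 for Stard4, -0.48 to 0.13 for Odc1, -0.08 to 0.36 for Rrp9, -0.43 to 0.04 for Nfatc1, -0.10 to 0.45 for Aen and -6.21 to 0.09 for Cecr2. With 2 sets in place of 4 groups it was 2.35 for Ppargc1a, 0.01 for Ppargc1b, -0.35 for Gzmb, -0.06 for Ifng, -0.08 for Myc and -0.17 for Cdkn1a, and limma gave 0.13 for Ppargc1a. Ppargc1b was at 0 with the replicate block, alone or with offsets, and Polg at 0.01 with offsets and 0.02 with both. With the first libraries of EnPGC-1 and DMSO left out it was -0.12 for Pprc1, -0.01 for Gzmb, -0.11 for Myc, 0.27 for Cpt1a, -0.17 for Gstm1, 0.04 for Bmf, 0.05 for E2f8, -0.11 for Rrp9, -0.02 for Plk3, -0.12 for Aen and 0.08 for Cecr2. Without the second it was 0.03 for Ppargc1b and -0.06 for Cd8a. Of 648 list medians 638 stayed within their spread and 10 did not. With 1 library left out, 31 of 36 list medians changed sign at least once.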

Other observations

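Other lists are given beside all genes, of which 46.1% were above 0. Of 50 cytosolic ribosomal proteins 42 were above 0 (median 0.03), of 16 heat shock and chaperone genes 14 (median 0.05), of 15 nuclear long noncoding RNAs 13 (median 0.08) and of 29 genes of the ATF4 stress response 22 (median 0.05). Without the second libraries of DMSO and EnPGC-1 the counts of these 4 lists were 45 of 50, 14 of 16, 14 of 16 and 22 of 29, and without the first 28 of 50, 4 of 16, 6 of 16 and 13 of 28. Of 36 type I interferon-stimulated genes 12 were above 0 (median -0.08), of 22 genes of naive and memory cells 9 (median -0.04), and of 20 genes of the unfolded protein response 5 (median -0.03, and 0.11 without DMSO replicate 2). Of 30 splicing regulators 11 were above 0 (median -0.03), and of 30 genes of autophagy and the lysosome 13 (median -0.05). Of 7 tested replication-dependent histone genes 1 was above 0 (median -0.18). edgeR called 0 members of these lists.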
